A study of Mus musculus with 13 samples.

Results

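The cerebral cavernous malformation (CCM) complex and its kinase partners comprise 9 genes here, taken from the count table by symbol: Pdcd10, Krit1, Ccm2, Ccm2l, Heg1, Stk24, Stk25, Stk26 and Map3k3. All 9 were found among the 55416 gene identifiers of the table, and all 9 passed the filter on low counts that left 22507 genes for testing. Messenger RNA of mouse brain tissue had been sequenced in 13 libraries. The study compared mice without Pdcd10 in brain endothelium with littermates that kept the gene, at normal and at lowered oxygen. The knockouts (KO; genotype Slco1c1-iCreERT2;Pdcd10fl/fl) received 50 µg of 4-hydroxytamoxifen into the stomach on postnatal day 1. The controls (flox; genotype Pdcd10fl/fl) carried the floxed gene without Cre. Hypoxia was 12% oxygen for 7 days and normoxia was 21% oxygen. The groups were KO in normoxia (3 libraries), flox in normoxia (3 libraries), KO in hypoxia (4 libraries) and flox in hypoxia (3 libraries).

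All 4 groups share the floxed Pdcd10 alleles. The Cre recombinase is driven by the Slco1c1 promoter and acts in brain endothelial cells, which are a small share of the cells of the tissue sequenced. The sources leave it unclear whether the flox mice were injected too, and they name injection-free Cre carriers as further controls, although every control library here is labelled Pdcd10fl/fl. The deletion, the Cre transgene and any difference in injection therefore cannot be told apart. The age at which tissue was taken is not given in the sources used here. In bulk tissue, more cells of a type and more RNA per cell cannot be told apart.

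As background, PDCD10 (also called CCM3), KRIT1 (CCM1) and CCM2 are adaptor proteins without enzyme activity. Loss of any of them in brain endothelium leads to clusters of dilated, leaky capillaries. KRIT1 is held at endothelial junctions by the transmembrane protein HEG1 and the small GTPase RAP1, and it binds CCM2, which in turn holds back the kinase MEKK3 (gene Map3k3). When this brake is missing, MEKK3 signals through ERK5 to the transcription factors KLF2 and KLF4. CCM2L is an endothelial paralog of CCM2. PDCD10 also binds the germinal centre kinases MST3 (Stk24), STK25 and MST4 (Stk26), and joins them to the phosphatase assembly STRIPAK.

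Total counts ran from 42090437 to 71216636 per library. The lowest count of any of the 9 genes in any library was 170, for Ccm2l. Values below are CPM, the deposited counts relative to the library total scaled by TMM, and fold changes and adjusted p-values are from edgeR's quasi-likelihood test over all 22507 genes, with a threshold of 0.05. The brain label was checked against markers of neurons, astrocytes and oligodendrocytes, none of which was without counts in any group. All libraries carry the label male, under a tag for cell line, yet Xist was above 1 CPM in 1 of 3 KO normoxia, 1 of 3 flox normoxia, 2 of 4 KO hypoxia and 0 of 3 flox hypoxia libraries. Those libraries had Xist at 564 to 793 CPM and the Y-linked genes Ddx3y, Eif2s3y and Kdm5d at 0, a female pattern that goes against their label. The 9 libraries without Xist had Ddx3y at 55.9 to 67.3 CPM, a male pattern. Sex was thus not balanced over the groups. KO hypoxia replicate 1 stood apart in its blood content, with 17400 CPM over 5 erythroid markers, against between 3410 and 4160 CPM in the other 3 KO hypoxia libraries.

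Of the 9 genes, Ccm2l and Heg1 were higher in KO than in flox brains, in normoxia and in hypoxia, by between 1.8-fold and 2.35-fold. The other 7 genes did not pass the test in either oxygen condition. The count of 2 of 9 stood beside 2.33% of all genes tested that passed in normoxia (1.96% higher and 0.369% lower) and 9.06% in hypoxia (6.78% higher and 2.28% lower). The median log2 fold change of the 9 genes was 0.04 in normoxia, where that of all genes was 0, and -0.08 in hypoxia, where that of all genes was -0.01. At an unadjusted p under 0.05 there were 2 of the 9 genes in normoxia and 3 in hypoxia, against 3053 and 5093 of all genes. Both counts of 2 were the same without KO hypoxia replicate 1 and in the 9 libraries without Xist.

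**Figure D1:**
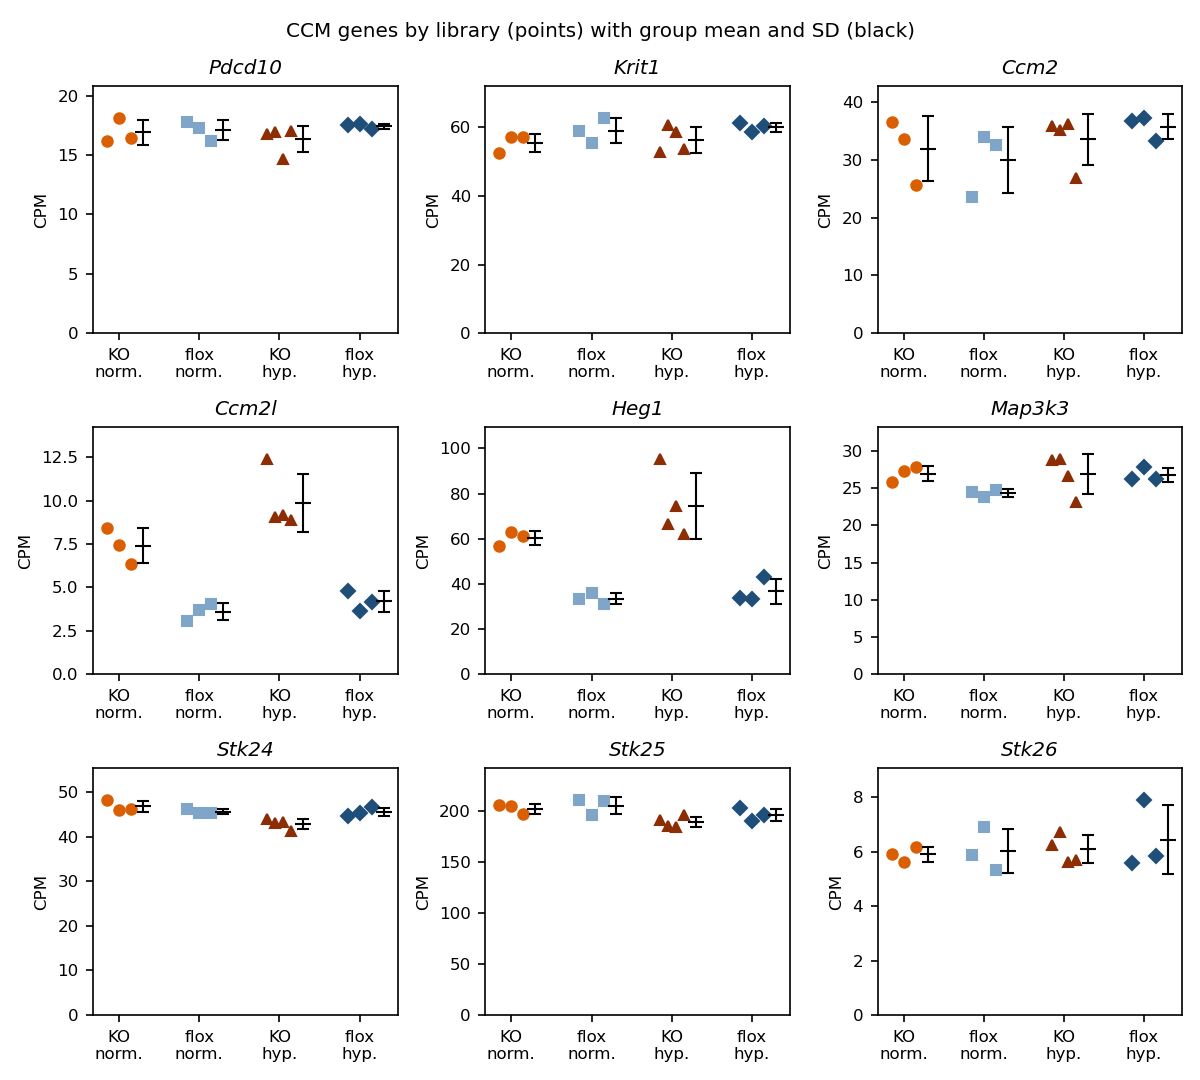
CPM of the 9 genes in each of the 13 libraries, by group, with KO left of flox within normoxia and within hypoxia. Points are libraries and bars are group means with SD. Ccm2l and Heg1 are the 2 genes whose KO points lie above all flox points at both oxygen levels.

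Pdcd10 (ENSMUSG00000027835), the floxed gene itself, had 16.2, 18.1 and 16.4 CPM in KO normoxia libraries, against 17.8, 17.3 and 16.2 CPM in flox normoxia libraries. In hypoxia it had 16.8, 16.9, 14.7 and 17 CPM in KO libraries, against 17.5, 17.6 and 17.2 CPM in flox libraries. The groups overlapped in normoxia, and in hypoxia every KO library lay below every flox library. The log2 fold change was -0.02 ± 0.07 (SE; adjusted p = 0.962) in normoxia and -0.09 ± 0.07 (adjusted p = 0.47) in hypoxia. The 95% intervals, -0.17 to 0.14 and -0.24 to 0.05, allow a fall of at most 0.24 on the log2 scale in the tissue as a whole. Counts summed over the gene do not separate the deleted exons, and other brain cells keep the gene, so this level does not check the genotype labels.

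Ccm2l (ENSMUSG00000027474), the CCM2 paralog, had 8.43, 7.44 and 6.38 CPM in KO normoxia libraries, against 3.05, 3.7 and 4.04 CPM in flox normoxia libraries. Under hypoxia the values were 12.4, 9.06, 9.16 and 8.9 CPM in KO libraries, against 4.8, 3.64 and 4.13 CPM in flox libraries. At both oxygen levels every KO library lay above every flox library. It rose 2.06-fold in KO normoxia brains (log2 fold change 1.04 ± 0.16 SE, adjusted p = 0.00193) and 2.35-fold in KO hypoxia brains (1.24 ± 0.15, adjusted p = 8.49e-05). KO hypoxia replicate 1, at 12.4 CPM, was the highest of all 13 libraries, and without it the log2 fold change in hypoxia was 1.11.

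Heg1 (ENSMUSG00000075254), the transmembrane anchor of KRIT1, had 56.8, 62.8 and 61.2 CPM in KO normoxia libraries, against 33.2, 36.1 and 31 CPM in flox normoxia libraries. In hypoxia it had 95.2, 66.7, 74.3 and 62 CPM in KO libraries, against 33.9, 33.1 and 43.1 CPM in flox libraries. Again no KO library overlapped a flox library at the same oxygen level. It rose 1.8-fold in KO normoxia brains (log2 fold change 0.85 ± 0.13 SE, adjusted p = 0.00227) and 2.04-fold in KO hypoxia brains (1.03 ± 0.12, adjusted p = 9.1e-05). The highest value again came from KO hypoxia replicate 1, without which the log2 fold change in hypoxia was 0.89.

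Both genes moved with the endothelial markers of the tissue. The marker counts below stand beside 1.96% of all genes higher in KO brains in normoxia and 6.78% in hypoxia (0.369% and 2.28% lower). All 13 of 13 endothelial markers were higher in KO than in flox brains at each oxygen level, with a median log2 fold change of 1.03 in both (12 of 13 in hypoxia without KO hypoxia replicate 1). Their summed level was between 349 and 392 CPM in KO normoxia, against 166 to 185 CPM in flox normoxia. In hypoxia it was between 457 and 738 CPM in KO, against 241 to 266 CPM in flox, and no marker was at 0 in any group. Pericyte markers were also higher in KO brains, 5 of 6 in normoxia (309 to 337 CPM in KO, 167 to 193 CPM in flox) and 6 of 6 in hypoxia (360 to 481 CPM in KO, 225 to 232 CPM in flox). In the 9 libraries without Xist, 2 of 6 pericyte markers passed in normoxia and 6 of 6 in hypoxia. Over all 13 libraries, the 5 erythroid markers were all higher in KO brains too. Their sum was 973 to 1700 CPM in KO normoxia against 139 to 261 CPM in flox normoxia, and 3410 to 17400 CPM in KO hypoxia against 448 to 670 CPM in flox hypoxia. In normoxia, 4 of 5 erythroid markers passed with DESeq2 and 3 of 5 in the 9 libraries without Xist, while in hypoxia 5 of 5 passed in both. Microglia markers passed for 0 of 8 in normoxia with edgeR (5 of 8 at an unadjusted p under 0.05, 1 of 8 with DESeq2, 3 of 8 without KO hypoxia replicate 1) and 7 of 8 in hypoxia (5 of 8 without that library). Of 8 astrocyte markers, 2 were higher and 1 lower in KO normoxia (summed 6140 to 6370 CPM in KO, 5600 to 5910 CPM in flox), and 4 were higher and 1 lower in KO hypoxia (5480 to 6710 CPM in KO, 5440 to 5520 CPM in flox). Gfap, the astrocyte filament gene, was among those that rose (log2 fold change 1.43 ± 0.15, adjusted p = 0.000132, in normoxia and 1.67 ± 0.15, adjusted p = 8.43e-06, in hypoxia). The astrocyte marker that was lower was Gja1 in normoxia (-0.26 ± 0.05, adjusted p = 0.0132) and Slc1a2 in hypoxia (-0.23 ± 0.04, adjusted p = 0.00295). In the 9 libraries without Xist, 3 astrocyte markers were higher and 0 lower in normoxia, so the call of Gja1 was lost. In hypoxia, 4 were higher and 1 lower in those libraries. Of 6 oligodendrocyte markers, 1 was lower in KO normoxia, with a median of -0.33 (3330 to 4110 CPM in KO, 4030 to 5380 CPM in flox). In hypoxia 0 of 6 passed with edgeR and 0 with DESeq2 (1 at an unadjusted p under 0.05), with a median of -0.06 (3570 to 4360 CPM in KO, 4080 to 4610 CPM in flox). The normoxia count was 3 lower with DESeq2. In the 9 libraries without Xist, 0 passed in normoxia (median -0.14) and 1 was lower in hypoxia (median -0.13). The part of these cell types in the rise of Ccm2l and Heg1 was not tested.

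Set against the mean log2 CPM of those 13 endothelial markers, Ccm2l lay at -1.58 ± 0.12 (SD, n = 3) in KO normoxia and -1.58 ± 0.12 (n = 3) in flox normoxia, on the log2 scale. In hypoxia it lay at -1.66 ± 0.09 (n = 4) in KO and -1.84 ± 0.17 (n = 3) in flox. Ccm2l thus kept nearly the same distance to the marker mean in KO and flox brains in normoxia. Heg1 lay at 1.44 ± 0.15 (n = 3) in KO normoxia, 1.63 ± 0.14 (n = 3) in flox normoxia, 1.24 ± 0.06 (n = 4) in KO hypoxia and 1.28 ± 0.14 (n = 3) in flox hypoxia. For Heg1, the KO mean was thus slightly below the flox mean at both oxygen levels on this relative scale, whereas its level in CPM was higher in KO. Pdcd10 lay at -0.39 ± 0.11 in KO normoxia against 0.67 ± 0.14 in flox normoxia, since its own level was about the same while the markers were higher. Over the 13 libraries, Pearson's r with the marker mean was 0.97 for Ccm2l, 0.96 for Heg1, 0.49 for Map3k3 and 0.25 for Ccm2. It was between -0.58 (Stk25) and -0.1 (Stk26) for the other 5 genes. These libraries share the group difference, so the values describe the set and carry no p.

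**Figure D2:**
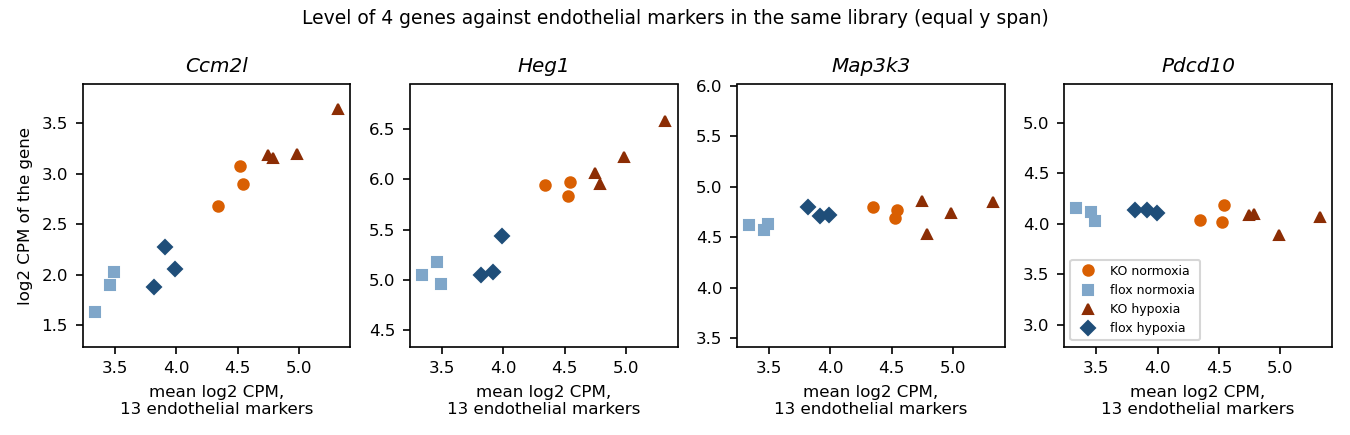
Log2 CPM of Ccm2l, Heg1, Map3k3 and Pdcd10 (y axis) against the mean log2 CPM of 13 endothelial markers (x axis), 1 point per library, coloured by group. Ccm2l and Heg1 climb with the marker mean across all 13 libraries (r of 0.97 and 0.96). Map3k3 (r of 0.49) and Pdcd10 (r of -0.41) stay flat or scatter.

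The sequence before the start of 3 genes is shown because they fill different places in the complex: Heg1, which rose, Ccm2, which did not pass, and the deleted gene Pdcd10. The 250 bases before each start were taken from RefSeq on the GRCm38.p6 build, which is older than the GRCm39 build of the counts, and 7 of the 9 genes had an entry. Capitals mark CACCC, the core that KLF factors bind, and CGGAAG, the core of ETS factors, each searched on both strands (so that GGGTG and CTTCCG count as matches). CACCC occurs in 52.0% and CGGAAG in 13.6% of 32851 promoter windows of the same length. Heg1 lies at chr16:33684216-33684465 (plus strand), Ccm2 at chr11:6546637-6546886 (plus strand, the first of its entries) and Pdcd10 at chr3:75556853-75557102 (minus strand).
Heg1: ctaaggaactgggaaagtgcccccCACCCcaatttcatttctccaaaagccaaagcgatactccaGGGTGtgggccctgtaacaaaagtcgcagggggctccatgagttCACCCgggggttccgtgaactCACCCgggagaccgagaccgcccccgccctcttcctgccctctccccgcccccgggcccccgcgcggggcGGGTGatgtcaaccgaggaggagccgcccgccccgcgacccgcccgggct
Ccm2: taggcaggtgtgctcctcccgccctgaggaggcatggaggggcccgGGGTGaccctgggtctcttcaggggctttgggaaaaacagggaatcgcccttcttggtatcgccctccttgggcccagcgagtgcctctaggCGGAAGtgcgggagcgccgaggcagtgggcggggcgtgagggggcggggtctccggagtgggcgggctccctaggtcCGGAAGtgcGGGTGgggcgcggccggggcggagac
Pdcd10: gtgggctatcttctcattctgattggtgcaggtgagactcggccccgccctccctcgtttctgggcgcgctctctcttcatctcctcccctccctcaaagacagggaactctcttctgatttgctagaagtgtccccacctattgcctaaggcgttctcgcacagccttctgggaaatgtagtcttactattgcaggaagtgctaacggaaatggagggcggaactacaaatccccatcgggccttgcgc
The Heg1 window held 5 matches to CACCC and 0 to CGGAAG. The Ccm2 window shown held 2 of each, while the other Ccm2 entry (chr11:6559933-6560182) held neither. The Pdcd10 window held neither. Among the others with an entry, both Krit1 windows held CGGAAG (1 and 2 matches) without CACCC, Stk25 and Stk26 held 1 CACCC each, and Map3k3 held neither. The Krit1 windows overlap each other and a promoter of Ankib1. A match is a description of these letters, not of binding.

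Krit1 and Ccm2, the other adaptors, were measured well above the counting floor and did not pass any test. Krit1 (ENSMUSG00000000600) had 52.5, 57.1 and 57.1 CPM in KO normoxia libraries, against 59.1, 55.4 and 62.7 CPM in flox normoxia libraries. Under hypoxia the values were 52.9, 60.7, 58.6 and 53.6 CPM in KO libraries, against 61.2, 58.6 and 60.3 CPM in flox libraries. The groups overlapped in both, and the log2 fold change was -0.09 ± 0.06 in normoxia (adjusted p = 0.576) and -0.09 ± 0.06 in hypoxia (adjusted p = 0.397). The intervals, -0.22 to 0.04 and -0.21 to 0.03, allow a fall of at most 0.22 on the log2 scale in the whole tissue. Ccm2 (ENSMUSG00000000378) had 36.5, 33.6 and 25.6 CPM in KO normoxia libraries, against 23.5, 34 and 32.6 CPM in flox normoxia libraries. In hypoxia it had 35.9, 35.2, 36.2 and 26.9 CPM in KO libraries, against 36.8, 37.2 and 33.2 CPM in flox libraries. Ccm2 had 1 library well below the rest in 3 of the 4 groups, which widened its intervals: the log2 fold change was 0.09 ± 0.14 in normoxia (-0.22 to 0.39, adjusted p = 0.863) and -0.09 ± 0.13 in hypoxia (-0.38 to 0.2, adjusted p = 0.758).

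The 3 kinases that bind PDCD10 differed little between genotypes. Stk25 (ENSMUSG00000026277), a Golgi-associated kinase with a known part in neuronal polarity, had 206, 205 and 197 CPM in KO normoxia libraries, against 211, 196 and 210 CPM in flox normoxia libraries. Under hypoxia the values were 192, 186, 185 and 196 CPM in KO libraries, against 203, 191 and 196 CPM in flox libraries. The groups overlapped, with log2 fold changes of -0.02 ± 0.04 (adjusted p = 0.883) and -0.05 ± 0.04 (adjusted p = 0.484). Stk24 (ENSMUSG00000063410), the gene of MST3, had 48.2, 46.1 and 46.2 CPM in KO normoxia libraries, against 46.3, 45.3 and 45.3 CPM in flox normoxia libraries. In hypoxia it had 44, 43, 43.3 and 41.2 CPM in KO libraries, against 44.7, 45.4 and 46.6 CPM in flox libraries. Every KO hypoxia library lay below every flox hypoxia library, by a small margin: the log2 fold change was -0.09 ± 0.04 (unadjusted p = 0.0496, adjusted p = 0.22), and in normoxia it was 0.04 ± 0.04 (adjusted p = 0.791). Stk26 (ENSMUSG00000031112), the X-linked gene of MST4, averaged 5.9 ± 0.273 CPM in KO normoxia and 6.04 ± 0.819 CPM in flox normoxia (SD, n = 3 each). In hypoxia it averaged 6.09 ± 0.517 CPM in KO (n = 4) and 6.45 ± 1.26 CPM in flox (n = 3). The groups overlapped at both oxygen levels, with log2 fold changes of -0.03 ± 0.13 (-0.32 to 0.25, adjusted p = 0.958) and -0.08 ± 0.13 (-0.35 to 0.19, adjusted p = 0.763).

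Map3k3 (ENSMUSG00000020700), the gene of the kinase MEKK3 that CCM2 binds, had 25.8, 27.3 and 27.8 CPM in KO normoxia libraries, against 24.5, 23.8 and 24.8 CPM in flox normoxia libraries. Under hypoxia the values were 28.8, 28.9, 26.6 and 23.2 CPM in KO libraries, against 26.2, 27.8 and 26.3 CPM in flox libraries. The KO values all lay above the flox values in normoxia and spanned them in hypoxia. The log2 fold change was 0.15 ± 0.07 in normoxia (-0.01 to 0.3, adjusted p = 0.411) and 0.01 ± 0.07 in hypoxia (adjusted p = 0.968), so the gene did not pass in either. In all, the KO libraries lay wholly above the flox libraries for 3 of the 9 genes in normoxia (10.5% of all genes) and for 2 in hypoxia (11.5%). They lay wholly below for 0 in normoxia (8.7%) and for 2, Pdcd10 and Stk24, in hypoxia (9.37%).

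**Figure D3:**
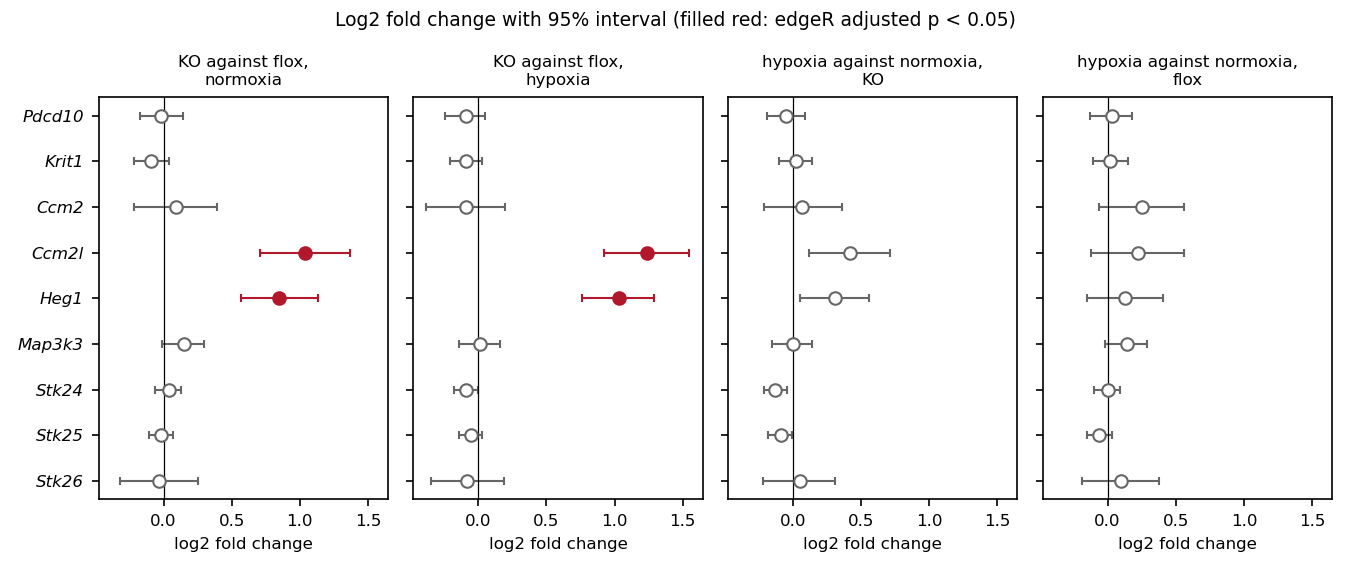
Log2 fold changes of the 9 genes with 95% intervals for KO against flox in normoxia and hypoxia and for hypoxia against normoxia in KO and flox. Filled points pass the adjusted p threshold of 0.05; these are Ccm2l and Heg1 in both genotype comparisons.

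Lowered oxygen moved none of the 9 genes past the threshold in either genotype. In KO brains the count was 0 of 9 with edgeR, beside 0.897% of all genes, with 4 of the 9 genes at an unadjusted p under 0.05 and 0 of 9 with DESeq2. In flox brains it was 0 of 9, beside 0.0222% of all genes, with 0 at an unadjusted p under 0.05 and 0 with DESeq2. Among KO brains, Ccm2l averaged 9.88 ± 1.69 CPM in hypoxia (SD, n = 4) and 7.42 ± 1.02 CPM in normoxia (n = 3), without overlap (log2 fold change 0.42 ± 0.14, 0.12 to 0.71, adjusted p = 0.176). Heg1 averaged 74.6 ± 14.7 CPM in hypoxia and 60.3 ± 3.13 CPM in normoxia, with overlap (0.31 ± 0.12, adjusted p = 0.25). Without KO hypoxia replicate 1 the log2 fold change was 0.29 for Ccm2l and 0.17 for Heg1, so that 1 library gave a part of each difference. Stk24 averaged 42.9 ± 1.2 CPM in KO hypoxia and 46.8 ± 1.21 CPM in KO normoxia (-0.13 ± 0.04, adjusted p = 0.157), and Stk25 averaged 190 ± 5.23 CPM in KO hypoxia and 203 ± 4.51 CPM in KO normoxia (-0.09 ± 0.04, adjusted p = 0.295). For both kinases every hypoxia library lay below every normoxia library. The 1 gene wholly higher in KO hypoxia (Ccm2l) stood beside 6.59% of all genes, and the 2 wholly lower beside 6.04%.

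In flox brains the largest log2 fold change between oxygen levels was that of Ccm2, with 35.7 ± 2.22 CPM in hypoxia and 30 ± 5.69 CPM in normoxia (0.25 ± 0.14, -0.06 to 0.56, adjusted p = 0.84). Ccm2l averaged 4.19 ± 0.582 CPM in flox hypoxia and 3.6 ± 0.503 CPM in flox normoxia (log2 fold change 0.22 ± 0.16, -0.12 to 0.56, adjusted p = 0.902). Heg1 averaged 36.7 ± 5.59 CPM in flox hypoxia and 33.4 ± 2.56 CPM in flox normoxia (0.13 ± 0.13, -0.15 to 0.41, adjusted p = 0.948). For Ccm2l and Heg1 the libraries overlapped, and the intervals still allow a rise of up to 1.48-fold for Ccm2l and 1.33-fold for Heg1. Map3k3 was the 1 gene whose flox libraries did not overlap between oxygen levels (6.56% of all genes wholly higher and 5.98% wholly lower), at 26.8 ± 0.87 CPM in hypoxia and 24.4 ± 0.525 CPM in normoxia (0.14 ± 0.07, adjusted p = 0.823). Pdcd10 averaged 17.4 ± 0.194 CPM in flox hypoxia and 17.1 ± 0.799 CPM in flox normoxia (0.03 ± 0.07, -0.13 to 0.18, adjusted p = 0.989). Between oxygen levels, 7 of 13 endothelial markers passed the test in KO brains (median 0.56) and 1 of 13 in flox brains (median 0.47), with 11 of 13 at an unadjusted p under 0.05 in each genotype. The difference between genotypes, tested as the interaction, passed for 0 of the 13 with edgeR (0 at an unadjusted p under 0.05, 0 with DESeq2). Without KO hypoxia replicate 1 the counts were 5 in KO and 3 in flox, with DESeq2 they were 9 and 4, and in the 9 libraries without Xist they were 1 and 2.

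Whether the effect of the knockout differed between oxygen levels was tested as an interaction. It was 0.19 ± 0.21 for Ccm2l (-0.26 to 0.65, adjusted p = 0.879) and 0.17 ± 0.18 for Heg1 (-0.2 to 0.55, adjusted p = 0.868), on the log2 scale. Of the 9 genes, 0 passed with edgeR, beside 0% of all genes, with 0 at an unadjusted p under 0.05 and 0 with DESeq2. The smallest unadjusted p was that of Stk24 (-0.12 ± 0.06, unadjusted p = 0.0556, adjusted p = 0.686).

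Per length, in the deposited RPKM, the 9 genes spanned a wide range of levels. Over all 13 libraries the level was 34.1 ± 1.22 RPKM for Stk25 (SD), above every other member in every library. Next came Ccm2 (8.96 ± 1.24) and Stk24 (8.41 ± 0.286), whose ranges overlapped, and then, below the range of Stk24, Map3k3 (6.53 ± 0.458). Map3k3, Pdcd10 (5.75 ± 0.272), Heg1 (4.17 ± 1.58), Ccm2l (2.73 ± 1.22) and Krit1 (2.64 ± 0.144) each overlapped the next in order. Stk26 was lowest at 1.16 ± 0.134 RPKM, below the range of Krit1. The order of Heg1 and Ccm2l depended on the group: in KO hypoxia Heg1 was 5th at 5.92 RPKM and Ccm2l 7th at 4.15 RPKM, while in flox normoxia Heg1 was 7th at 2.61 RPKM and Ccm2l 8th at 1.49 RPKM. The length behind the RPKM of Krit1 was 21.9 kb, far above its longest annotated transcript of 5.58 kb. With transcript lengths instead, an alternative chosen after seeing the data, Krit1 moved to 4th place, Map3k3 to 6th, Heg1 to 7th and Ccm2l to 8th, and the other 5 kept their places.

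**Figure D4:**
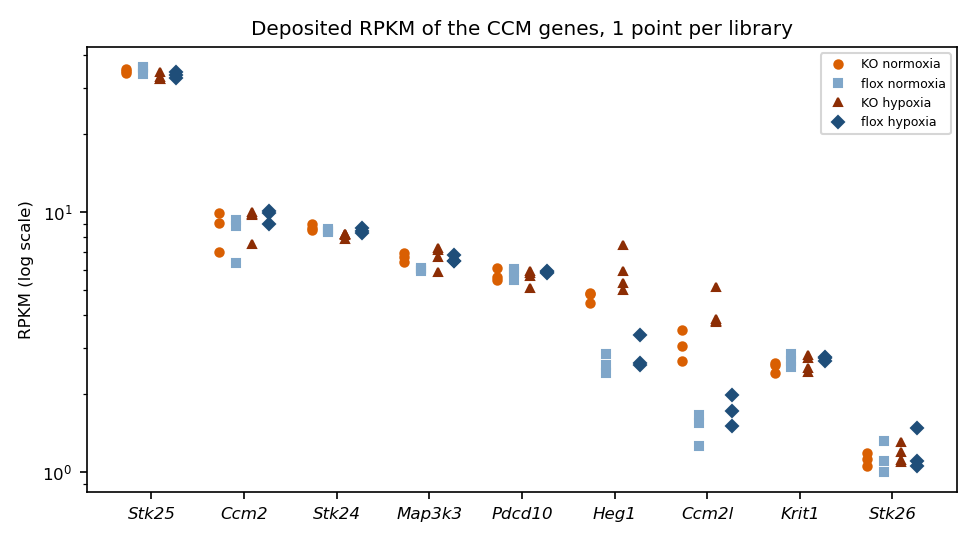
Level per length (RPKM, log axis) of the 9 genes by group, with 1 point per library, in the order of the mean over all 13 libraries. Stk25 lies above all other genes at 34.1 RPKM on average and Stk26 below at 1.16 RPKM, and Heg1 and Ccm2l are the genes that part by genotype.

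Among 8 partners of KRIT1, CCM2 and HEG1, 3 were higher in KO brains in normoxia and 5 in hypoxia, with 0 lower in either and median log2 fold changes of 0.27 and 0.35. The shares of all genes were 1.96% higher and 0.369% lower in normoxia, and 6.78% higher and 2.28% lower in hypoxia. Cdh5, the gene of the endothelial adhesion protein VE-cadherin and also 1 of the endothelial markers above, averaged 25.4 ± 0.786 CPM in KO normoxia and 12.3 ± 0.788 CPM in flox normoxia (1.04 ± 0.15, adjusted p = 0.00102). In hypoxia it averaged 38.4 ± 9.61 CPM in KO and 15.7 ± 0.935 CPM in flox (1.3 ± 0.14, adjusted p = 3.46e-05). Rasip1, an effector of RAP1 in vessels, rose in both (0.68 ± 0.12, adjusted p = 0.00475, and 0.57 ± 0.11, adjusted p = 0.00303). Its binding partner Arhgap29 rose in hypoxia (0.46 ± 0.09, adjusted p = 0.0027), as did the integrin Itgb1 (0.62 ± 0.09, adjusted p = 0.00028). In normoxia these had log2 fold changes of 0.33 ± 0.09 each, with adjusted p of 0.074 for Arhgap29 and 0.0764 for Itgb1. Of the genes of RAP1 itself, Rap1b passed in both (0.21 ± 0.05, adjusted p = 0.047 in normoxia, and 0.24 ± 0.05, adjusted p = 0.00523 in hypoxia), and the normoxia call was lost in 9 of 13 fits that left out 1 library each (adjusted p up to 0.196, without flox normoxia replicate 1). Rap1a did not pass in hypoxia (0.23 ± 0.07, adjusted p = 0.0584), nor did the ubiquitin ligase gene Smurf1 (-0.04 ± 0.04, adjusted p = 0.683). Without KO hypoxia replicate 1, 5 of 8 passed in normoxia and 5 in hypoxia, and in the 9 libraries without Xist 2 and 5 passed. Within KO brains, Cdh5 (0.6 ± 0.13, adjusted p = 0.0469) and Itgb1 (0.39 ± 0.09, adjusted p = 0.0452) were higher in hypoxia than in normoxia. Leaving out 1 library lost the call of Cdh5 in 9 of 13 fits and that of Itgb1 in 10 of 13 (without KO hypoxia replicate 1, 0.42 with adjusted p = 0.0455 and 0.31 with adjusted p = 0.0753). In the 9 libraries without Xist neither passed (adjusted p = 0.125 for Cdh5 and 0.179 for Itgb1).

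In the list of the MEKK3 to ERK5 cascade and its transcription factors, 2 of 8 genes were higher in KO brains at each oxygen level. This stood beside 1.96% of all genes in normoxia and 6.78% in hypoxia. The genes that rose, Klf2 and Klf4, code for transcription factors of the KLF family, which endothelium expresses. The 13 endothelial markers were higher in the same comparisons, with a median of 1.03 at both oxygen levels, and their part in the rise of Klf2 and Klf4 was not tested. Klf4 averaged 23.4 ± 2.48 CPM in KO normoxia and 8.5 ± 3.29 CPM in flox normoxia (1.45 ± 0.25, adjusted p = 0.00438). In hypoxia it averaged 32.1 ± 9.92 CPM in KO and 10.3 ± 1.83 CPM in flox (1.65 ± 0.24, adjusted p = 0.000347). Klf2 averaged 27.7 ± 6.98 CPM in KO normoxia and 13.4 ± 5.09 CPM in flox normoxia (1.03 ± 0.24, adjusted p = 0.0307). In hypoxia it averaged 48.4 ± 10.9 CPM in KO and 22.6 ± 2.58 CPM in flox (1.1 ± 0.22, adjusted p = 0.00502). The normoxia call of Klf2 was lost in 4 of 13 fits that left out 1 library each, with log2 fold changes of 0.81 to 1.37 over the 13 (adjusted p up to 0.158, without KO normoxia replicate 1). The kinases of the cascade did not pass: Map2k5 had -0.02 ± 0.07 and -0.02 ± 0.07, Mapk7 (the gene of ERK5) had -0.04 ± 0.08 and -0.03 ± 0.07, and Map3k2 had -0.2 ± 0.08 (adjusted p = 0.281) and -0.07 ± 0.08 (adjusted p = 0.657), in normoxia and in hypoxia. Of the MEF2 factors that ERK5 acts on, Mef2d fell in KO hypoxia (-0.16 ± 0.04, adjusted p = 0.0253), a call lost in 6 of 13 fits that left out 1 library each (0.0552 without KO hypoxia replicate 1) and in the 9 libraries without Xist (0.224). Mef2c, which neurons also express, was lower in KO hypoxia than in KO normoxia (-0.24 ± 0.05, adjusted p = 0.0308), a call lost in 4 of the 13 fits (adjusted p up to 0.162, without KO normoxia replicate 2) and in the 9 libraries without Xist (0.141). Mef2a did not pass (0.04 ± 0.04 and 0.02 ± 0.04 for KO against flox).

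Of 13 other STRIPAK genes, 0 passed in normoxia with edgeR (3 at an unadjusted p under 0.05, 0 with DESeq2), beside 2.33% of all genes. In hypoxia 3 were lower and 1 higher in KO brains, beside 2.28% of all genes lower and 6.78% higher. Cttnbp2, which codes for a neuronal cortactin-binding protein, averaged 118 ± 5.92 CPM in KO hypoxia and 141 ± 1.51 CPM in flox hypoxia (-0.25 ± 0.04, adjusted p = 0.00117). Strn, the gene of the scaffold striatin, averaged 94.9 ± 6.44 CPM in KO hypoxia and 108 ± 1.53 CPM in flox hypoxia (-0.19 ± 0.05, adjusted p = 0.0142). Strip2 averaged 29.9 ± 3.09 CPM in KO hypoxia and 38.3 ± 2.56 CPM in flox hypoxia (-0.36 ± 0.09, adjusted p = 0.0209). Cttnbp2nl was the 1 that rose (0.22 ± 0.06, adjusted p = 0.0242). Leaving out 1 library lost the call of Cttnbp2nl in 4 of 13 fits (0.0679 without KO hypoxia replicate 1), that of Strip2 in 4 and that of Strn in 2 (up to 0.0972 and 0.0677, both without flox hypoxia replicate 2), while Cttnbp2 passed in all 13. In the 9 libraries without Xist, Strn (0.0958) and Strip2 (0.0668) did not pass. The phosphatase 2A subunits Ppp2r1a (-0.04 ± 0.03, adjusted p = 0.477) and Ppp2ca (-0.1 ± 0.05, adjusted p = 0.263) did not pass. The 3 falls were small, and in the same comparison 1 of 8 neuronal markers was lower, with a median of -0.09 and summed levels of 6950 to 7160 CPM in KO hypoxia against 7520 to 7740 CPM in flox hypoxia. Their part in the falls was not tested.

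Among 7 partners and substrates of the germinal centre kinases, Msn (moesin), an ERM protein that links membrane and actin, averaged 45.4 ± 1.34 CPM in KO normoxia and 24.9 ± 0.556 CPM in flox normoxia (0.87 ± 0.11, adjusted p = 0.000589). In hypoxia it averaged 65.3 ± 12.8 CPM in KO and 26.8 ± 2.07 CPM in flox (1.28 ± 0.11, adjusted p = 6.64e-06). Its relative Ezr (ezrin) rose in hypoxia (0.42 ± 0.1, adjusted p = 0.0133), a call lost in 2 of 13 fits that left out 1 library each (0.0729 without flox hypoxia replicate 2). Rdx (radixin) did not pass (0 ± 0.04 in normoxia and 0.07 ± 0.04, adjusted p = 0.308, in hypoxia). The kinase scaffold Cab39 (0.06 ± 0.04 and -0.07 ± 0.04) and the Golgi protein gene Golga2 (0.02 ± 0.04 and -0.07 ± 0.04) did not pass either. In all 1 of 7 was higher in normoxia and 2 of 7 in hypoxia, with medians of 0.06 and 0.07, and 0 were lower. Among all genes, 1.96% were higher in normoxia and 6.78% in hypoxia, and 0.369% and 2.28% were lower. Msn was also higher in KO hypoxia than in KO normoxia (0.52 ± 0.11, adjusted p = 0.0326), a call lost in 4 of 13 such fits (up to 0.153, without KO normoxia replicate 2) and in the 9 libraries without Xist (0.0746). In flox brains hypoxia moved 0 genes of these 4 lists past the threshold with edgeR, beside 0.0222% of all genes, and 0 with DESeq2. At an unadjusted p under 0.05 there were 2 STRIPAK genes, 2 partners of KRIT1, 1 gene of the MEKK3 cascade and 0 of the germinal centre kinase list.

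The genes whose log2 CPM ran most alike over the 13 libraries were looked up among 16458 candidates for the 3 genes the results turn on. For Ccm2l these were Acvrl1 (r = 0.988), Anxa2 (r = 0.988) and Ctsh (r = 0.987), and for Heg1 they were AI467606 (r = 0.988), Cavin1 (r = 0.985) and Adgra2 (r = 0.984). For Pdcd10, which varied little, they were Hira (r = 0.864), Pla2g2f (r = 0.857) and Srsf11 (r = 0.852). Among the 9 genes themselves the highest r was 0.94, between Ccm2l and Heg1. No other pair reached 0.8 in either direction. These values describe libraries that share their groups, and with so many candidates some high values arise for any gene.

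Some of the 9 genes have close neighbours whose reads could bear on them. Serpini1, a neuronal serpin gene, starts 691 bases from Pdcd10 on the other strand in the GRCm38 annotation, and averaged 270 CPM in KO normoxia, 245 CPM in flox normoxia, 266 CPM in KO hypoxia and 274 CPM in flox hypoxia. Ankib1 starts 259 bases from Krit1 on the other strand and averaged between 65.9 and 67.5 CPM in the 4 groups. Farp2 overlaps Stk25 on the other strand and had 2.88% as many counts as Stk25. The other overlapping genes had at most 0.84% as many counts as the gene they overlap. The kit kept strand, and the strand setting of the counting is not given in the sources used here.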

How the data were processed

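The authors deposited raw counts per gene and RPKM values for 55416 gene identifiers in 13 libraries of mouse brain RNA. Per the submitters' processing notes, HISAT2, edgeR and GRCm39 were used (no versions named). The sources used here do not state how counting was set up or which annotation it used. Each deposited RPKM value equals the deposited count divided by the library's total and 1 length per gene, with no composition factor. A symbol was found for 52083 identifiers, and the 3333 without held 0.346% of counts.

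The counts went into edgeR 4.0.16 (R 4.3.3). filterByExpr left 22507 genes, TMM set the scaling, and 1 quasi-likelihood fit with a mean for each of the 4 groups took in all 13 libraries. KO was tested against flox at each oxygen level, hypoxia against normoxia in each genotype, and the interaction. Adjusted p-values follow Benjamini and Hochberg, over all genes of a comparison. The standard error was taken from the F statistic, and intervals are 95%. Log2 CPM for marker means and correlations had a prior count of 2. Totals of 42090437 to 71216636 put 3 counts, the floor, at 0.0421 to 0.0713 CPM, for counting error only.

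The 9 genes, the pathway lists and the marker lists were chosen with earlier results of these data known. From each pathway list up to 4 genes past the threshold with the smallest p and the 2 most abundant others were named. Rap1b, Rdx, Map2k5, Mapk7, Gfap, Gja1 and Slc1a2 fall outside that rule and were named after their values were seen. Labels name no animal, so the p-values cover only how these libraries vary, which may be partly technical, and no batch is given. Libraries of a group differed beyond counting error (chi-square per degree of freedom of at least 4.44). Same-numbered libraries did not deviate together (correlations from -0.02 to 0.14), so numbers were not used as pairs. Alternatives were RLE scaling, library totals alone, no filter, a filter of 1 CPM, DESeq2 1.42.0, limma 3.58.1 on RPKM values with a pseudocount of 1 or 0.1 before log2, a replicate block, only the libraries compared, an Xist term and leaving out each library. The fit of the 9 libraries without Xist, the transcript lengths and the counts and calls of the lists without single libraries were added after seeing the data. The genome at hand is another build, so it served for neighbours and promoter sequence only.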

Additional observations from a re-analysis of the deposited data

Results flagged for a closer look

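In KO hypoxia, the 1 group of 4 libraries, the highest or lowest library was checked for its gap to the nearest other, as a share of the group's range, against Dixon's 95% critical value for 4 samples. Of 17 values checked, 5 passed, where chance passes about 1 in 20 for a single value. The 17 values come from the same 4 libraries and are not independent, so the 5 are not separate events. Pdcd10 was at 14.7 CPM in replicate 3, against 16.8 to 17 CPM in the other 3 libraries (0.913 of the range). Ccm2 was at 26.9 CPM in replicate 4, against 35.2 to 36.2 CPM in the others (0.892). Ccm2l was at 12.4 CPM in replicate 1, against 8.9 to 9.16 CPM in the others (0.926). The same replicate held 17400 CPM over the erythroid markers, against 3410 to 4160 CPM in the others (0.946), and 10.3 CPM over the markers of lymphocytes and neutrophils, against 2.53 to 2.85 CPM in the others (0.959). Its endothelial markers summed to 738 CPM, against 457 to 542 CPM in the others (0.698, under the critical value), and its Heg1 of 95.2 CPM was likewise under it (0.63).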

How the results depend on the processing

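Ccm2l and Heg1 passed for KO against flox under all 24 alternatives in each oxygen condition. The log2 fold change of Ccm2l ran from 0.71 to 1.23 in normoxia (adjusted p at most 0.0147) and from 0.91 to 1.36 in hypoxia (at most 0.00141). That of Heg1 ran from 0.66 to 0.91 in normoxia (at most 0.0254) and from 0.84 to 1.16 in hypoxia (at most 0.00157). The lowest values came from log2(RPKM + 1), whose pseudocount shrinks low genes. For the other 7 genes, 0 of 833 alternative values passed and 24 changed sign. Of the 9 genes, leaving out a library gave 2 to 2 calls in both genotype comparisons and 0 to 0 in the others. With no filter, 1 of the 9 genes passed for hypoxia against normoxia in KO, Heg1 (0.30, adjusted p = 0.0129); over all alternatives its adjusted p there ran from 0.0129 to 0.51.

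The number of all genes called, which sets the background shares, moved more; the cause was not tested. For 4 comparisons in this order, KO against flox in normoxia, oxygen levels within flox, oxygen levels within KO, and the interaction, it was 995, 158, 833 and 55 with no filter, 874, 67, 755 and 5 with DESeq2, and 311, 66, 94 and 10 in the 9 libraries without Xist. In the same order it was 249, 2, 46 and 2 on log2(RPKM + 1), and 333, 2, 42 and 2 on log2(RPKM + 0.1). Fitting only the libraries compared gave 19 for flox and 30 for KO between oxygen levels. A replicate block gave 1 for the interaction, 510 and 1571 for the genotype comparisons in normoxia and hypoxia, 5 for flox and 174 for KO, and left 2 of the 9 genes called in each genotype comparison. Leaving out 1 library gave 250 to 727 in normoxia and 1151 to 2490 in hypoxia for KO against flox, 0 to 45 for flox, 2 to 463 for KO and 0 to 1 for the interaction.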

Other observations

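Ccm2 was low in 3 libraries, chosen here after its values were seen: 25.6 CPM in KO normoxia replicate 3, 23.5 CPM in flox normoxia replicate 1 and 26.9 CPM in KO hypoxia replicate 4. The other 10 libraries lay between 32.6 and 37.2 CPM, and the gap came to 17.3% of the mean. The low libraries were 1 each of 3 groups, and of the 4 libraries with Xist above 1 CPM (KO normoxia replicate 3, flox normoxia replicate 3, and KO hypoxia replicates 3 and 4) 2 were among them and 2 were not. Only the widest gap of each gene was taken, and in no other of the 9 genes did it set more than 1 library apart at this size. Beside their widest gaps, Ccm2l and Heg1 also had a gap between genotypes. Flox libraries lay at most at 4.8 CPM for Ccm2l and 43.1 CPM for Heg1, and KO libraries at least at 6.38 and 56.8 CPM. For Ccm2l and Heg1 the widest gap, 49.5% and 39.4% of the mean, set KO hypoxia replicate 1 above the other 12 libraries. For Stk26 a gap of 15.9% set 1 library, flox hypoxia replicate 2 at 7.89 CPM, above the rest.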
